A study of Caenorhabditis elegans with 30 samples.

Results

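sqst-1 encodes the C. elegans counterpart of mammalian p62 (SQSTM1), a receptor that carries ubiquitin-tagged cargo to forming autophagosomes. It was the only gene of interest here, 1 of the 25870 genes that the arrays name, and it was read by 1 probe set of the 28387 analysed. The probe set was found by its gene name, which the files give as the locus T12G3.1 and the RefSeq gene table of assembly WBcel235 pairs with sqst-1. In the files it spans 12034230 to 12037029 on the plus strand of chromosome IV, a gene of 2800 bases, in a build that the sources used here do not name. sqst-1 was chosen by its measured signal in these same arrays, as an autophagy gene whose group means were seen to differ, so its own levels and differences are given as a description, with no test.

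In selective autophagy, a receptor such as SQST-1 binds ubiquitinated proteins on one side and Atg8-family proteins of the growing membrane on the other, and is degraded with its cargo in the lysosome. The protein therefore tends to fall when autophagic flux is high, while transcription of its gene is known to be raised by stress-responsive factors such as SKN-1, the worm Nrf, and HLH-30, the worm TFEB. The arrays measured RNA alone, and protein level and flux were not measured.

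Whole animals labelled as young adults gave RNA for 30 Affymetrix arrays, in 10 groups of 3. Wild-type N2 animals carried the empty RNAi vector pL4440, carried RNAi against pmt-2, or were treated with tunicamycin, a blocker of N-glycosylation that causes unfolded proteins in the endoplasmic reticulum (ER), at 25 µg/mL in M9 buffer over 4 hours. Strains labelled as knockouts of an ER stress sensor gene (ire-1, atf-6 or pek-1) were grown on vector and, separately, on the RNAi. The last group was a pmt-2 knockout; its titles name the vector and its characteristics name no RNAi. pmt-2 encodes a phosphoethanolamine methyltransferase needed to make phosphatidylcholine. The medium of all groups held 25 µg/mL carbenicillin and 1 mM IPTG, and no buffer step is described for the 27 arrays without the drug, so effects of the drug and of the buffer cannot be told apart. Alleles are not given in the labels. The source names of the wild-type RNAi and tunicamycin arrays are swapped against every other label of these arrays, and the titles were followed. No label says that the arrays of 1 group are separate cultures, so the p-values below measure only the spread between arrays, which may be technical. Values are log2 signals after RMA, the authors' normalization, whose median on an array lay between 3.74 and 3.89.

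The labelled targets were checked first. pmt-2 stood at 10.14 ± 0.07 (SD, n = 3) in wild type on vector, at 6.63 ± 0.17 under its RNAi and at 4.70 ± 0.18 in its mutant, while the tunicamycin group stood between, at 8.70 ± 0.16. ire-1 was 6.19 ± 0.13 and 6.02 ± 0.10 in its mutant on vector and on RNAi, and between 8.07 and 8.80 in the other 8 groups. pek-1 was lower in its mutant than in wild type on vector by -0.84 (SE 0.10, limma adjusted p = 0.000109) and, both on RNAi, by -1.02 (SE 0.10, adjusted p = 7.19e-07). Signal remained in that mutant, at 6.74 ± 0.13 on vector and 7.70 ± 0.14 under RNAi. atf-6 did not pass the test in its mutant (difference -0.23, SE 0.10, adjusted p = 0.467), so the array does not check that label. The wild-type RNAi group had the least uniform arrays: its replicates 1 and 2 correlated at 0.980, the lowest within any group.

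sqst-1 was lower in wild type on the vector than under pmt-2 RNAi, with tunicamycin or in the pmt-2 mutant. Its vector mean was still above those of 79.4% of all probe sets. In wild type on vector the 3 arrays read 6.68, 6.95 and 7.09 (log2 level, mean 6.91 ± 0.20 SD). Under pmt-2 RNAi they read 10.13, 10.27 and 10.26 (10.22 ± 0.08), and with tunicamycin 8.70, 8.39 and 8.67 (8.59 ± 0.17). In the pmt-2 mutant they read 10.51, 10.57 and 10.51 (10.53 ± 0.04), the highest level of any group. No array of these 3 groups reached down to the vector arrays, and RNAi, drug and mutant did not overlap one another either (18.4% of all probe sets had every drug array below every RNAi array, and 29.9% every mutant array above). The share between drug and mutant was not counted. In whole animals, more cells with the transcript and more transcript per cell cannot be told apart, here and below.

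The strains labelled as knockouts of an ER stress sensor gene divided in the same measure. On vector, the atf-6 mutant read 6.83, 6.79 and 6.78 (6.80 ± 0.02) and the pek-1 mutant 6.77, 7.05 and 6.77 (6.86 ± 0.16), both overlapping wild type. The ire-1 mutant on vector read 8.25, 8.28 and 8.31 (8.28 ± 0.03), above every vector array of wild type, atf-6 and pek-1. Under RNAi the atf-6 mutant read 10.02, 9.90 and 10.09 (10.00 ± 0.10) and the pek-1 mutant 10.28, 10.12 and 10.33 (10.24 ± 0.11). The ire-1 mutant under RNAi read 9.29, 9.21 and 9.24 (9.25 ± 0.04), below every other RNAi array. The ire-1 mutant thus had the highest sqst-1 level of the 4 strains on vector and the lowest of the 4 under RNAi. Against wild type alone, 12% of all probe sets had every ire-1 array higher on vector, and 10.3% every one lower under RNAi. Such shares were not counted against the atf-6 and pek-1 mutants.

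**Figure D1:**
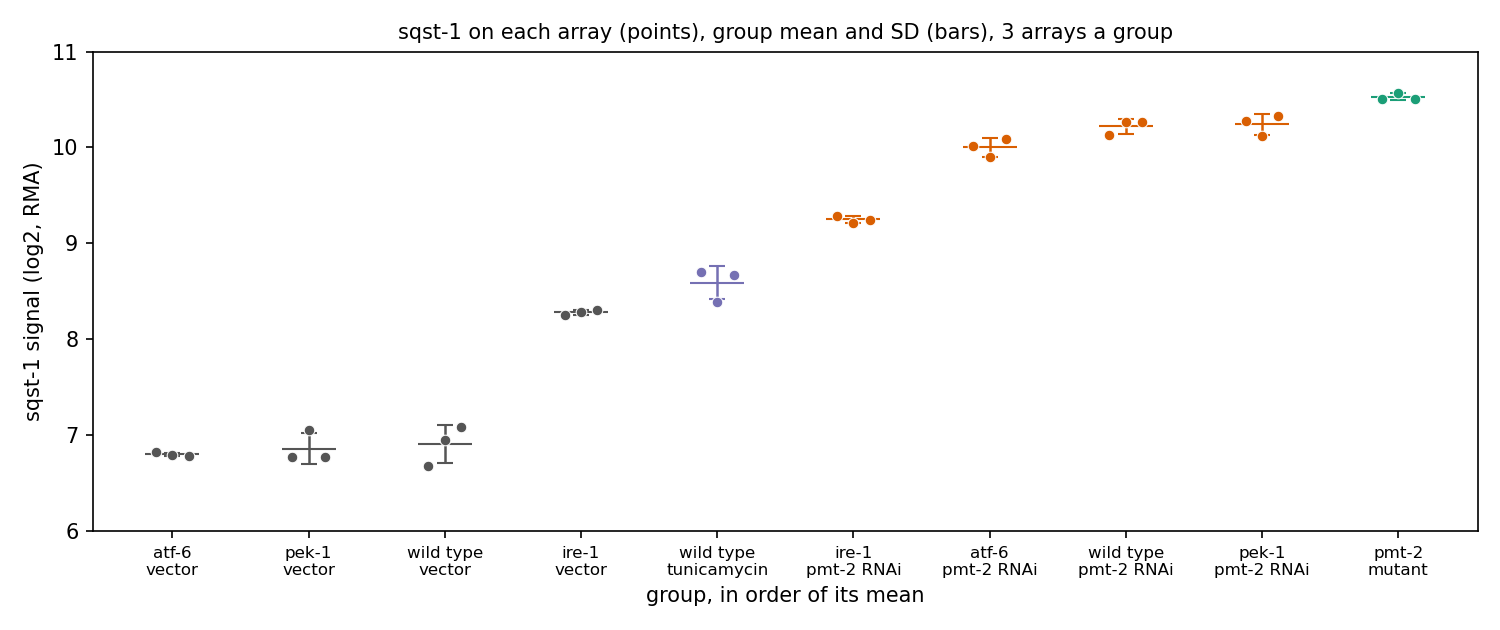
sqst-1 log2 signal on each of the 30 arrays (points), with the mean (long bar) and SD (whiskers) of each group of 3, groups ordered by mean; grey is vector, orange pmt-2 RNAi, violet tunicamycin, green the pmt-2 mutant. The vector groups of wild type, atf-6 and pek-1 lie near 6.9, the ire-1 vector group at 8.28, and the pmt-2 mutant at 10.53.

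Ordered by mean, the atf-6, pek-1 and wild-type vector groups came first and did not differ beyond their spread, with gaps of 0.06 and 0.05 and overlapping arrays. The step up to the ire-1 vector group was 1.37, the widest gap in the order. Tunicamycin lay 0.31 above that and ire-1 under RNAi a further 0.66. The atf-6 RNAi group followed after 0.75 and the wild-type RNAi group after 0.22. The wild-type and pek-1 RNAi groups overlapped, with a gap of 0.02, and the pmt-2 mutant stood 0.29 higher still. The means ran over 3.73 on the log2 scale, or 13.3-fold. Their SD of 1.5 was exceeded by 419 of the 28387 probe sets, whose median was 0.28. Within groups the pooled SD of sqst-1 was 0.113, against a median of 0.212 over all probe sets.

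As a difference between groups, sqst-1 was higher under pmt-2 RNAi than on vector in wild type by 3.31 (SE 0.105), which is 9.94-fold. A larger rise was found for 28 of the 28387 probe sets. All 3 RNAi arrays were above all 3 vector arrays, as was so for 17.4% of all probe sets. With tunicamycin the difference was 1.68 (SE 0.105), or 3.21-fold, and 194 probe sets had a larger one. The drug's arrays were again all above the vector arrays, as for 15.6% of probe sets. The pmt-2 mutant exceeded wild type on vector by 3.62 (SE 0.105), or 12.33-fold, with 333 larger rises and 29.6% of probe sets without overlap in that direction. Compared directly, tunicamycin was below RNAi by -1.63 (SE 0.105) and the pmt-2 mutant above RNAi by 0.31 (SE 0.105). The authors' deposited table for tunicamycin gives sqst-1 a signed fold of -3.38 although its own group means differ by 1.75 upward. There the fold had the sign opposite to the means for 27743 probe sets and the same sign for 0, and directions here follow the means.

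The response of sqst-1 to RNAi in the atf-6 and pek-1 mutants lay within 0.11 of that in wild type, and it was smaller in the ire-1 mutant. RNAi against vector gave 3.20 (SE 0.105, 9.19-fold) in the atf-6 mutant and 3.38 (SE 0.105, 10.42-fold) in the pek-1 mutant. In the ire-1 mutant it gave 0.97 (SE 0.105, 1.95-fold). All RNAi arrays were above all vector arrays in each strain, which held for 18% of probe sets in atf-6, 21.4% in pek-1 and 19.9% in ire-1 animals. As a difference of responses, mutant minus wild type, sqst-1 had -0.11 (SE 0.148) for atf-6, 0.07 (SE 0.148) for pek-1 and -2.35 (SE 0.148) for ire-1. For ire-1, 28341 of the 28387 probe sets had a higher value of that difference. On the linear scale the mean signal was higher under RNAi by 1073 units in wild type and by 297 in the ire-1 mutant, so the smaller response was seen without logarithms too.

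The smaller response in the ire-1 mutant had 2 components. Its vector level was above that of wild type by 1.37 (SE 0.105, 2.59-fold), with 154 probe sets higher by more and non-overlapping arrays, as for 12% of all probe sets. Its RNAi level was below that of wild type by -0.97 (SE 0.105), again without overlap, as for 10.3% of probe sets in that direction. The corresponding differences of the atf-6 mutant were -0.11 and -0.22 (SE 0.105 each), of which the second left no overlap, as for 6.22% of probe sets, and those of the pek-1 mutant were -0.05 and 0.02.

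**Figure D2:**
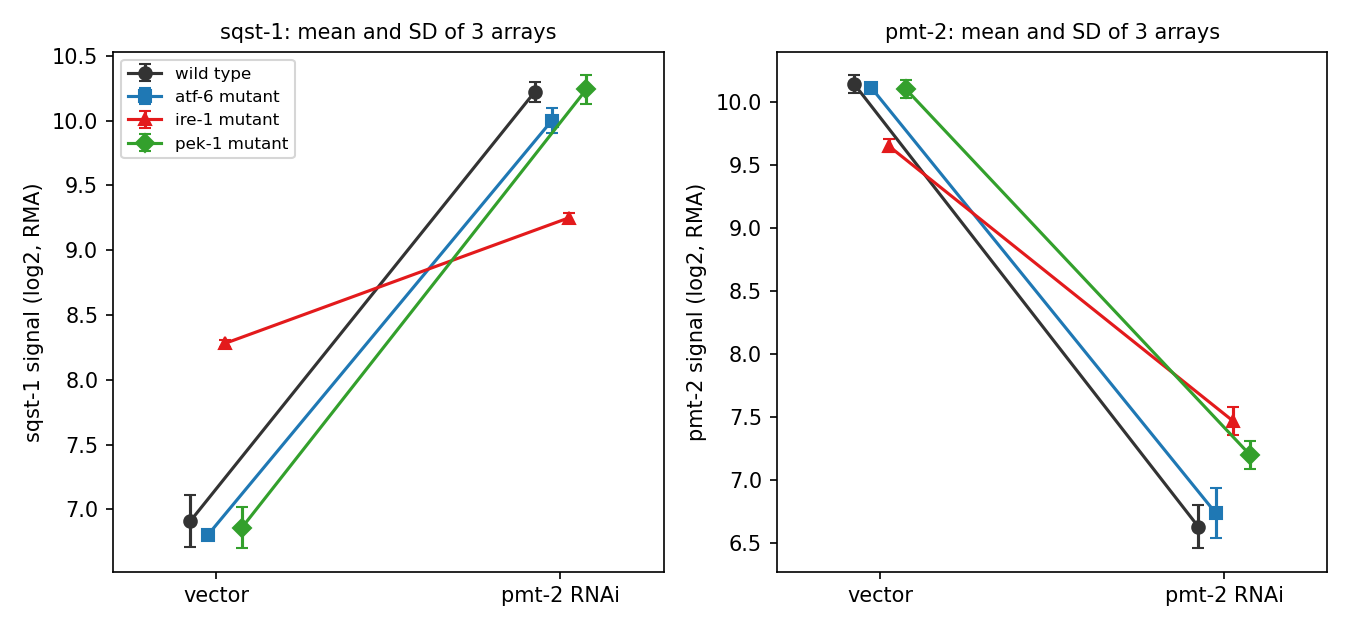
Mean log2 signal (points) and SD (whiskers) of 3 arrays on vector and under pmt-2 RNAi in 4 strains, for sqst-1 (left) and for the targeted gene pmt-2 (right). sqst-1 climbs from about 6.9 to above 10 in wild type, atf-6 and pek-1, and from 8.28 to 9.25 in ire-1, where pmt-2 ends at 7.47 against 6.63 in wild type.

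pmt-2 itself fell less in the ire-1 mutant. It was already lower there on vector, by -0.50 against wild type (SE 0.11, limma adjusted p = 0.00772). RNAi lowered it by -3.51 (SE 0.11, limma adjusted p = 3.01e-17) in wild type and by -2.18 (SE 0.11, adjusted p = 5.22e-12) in the ire-1 mutant, and the difference of these responses was 1.33 (SE 0.16, adjusted p = 3.55e-06). In the pek-1 mutant the fall was -2.90 (SE 0.11) and the difference of responses did not pass the test (0.61, SE 0.16, adjusted p = 0.0613). Under RNAi pmt-2 stood at 7.47 in the ire-1 mutant and at 7.20 in the pek-1 mutant. Both levels were above wild type under RNAi, by 0.84 (SE 0.11, limma adjusted p = 1.85e-05) and 0.57 (SE 0.11, adjusted p = 0.00354). The part of the shallower knockdown in the smaller sqst-1 response was not tested. Across the 10 group means, sqst-1 and pmt-2 had r = -0.94, a description over groups that share the treatment.

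Tissue markers moved with some of these groups. The summed signal of 13 neuronal markers (log2 of the sum) was 12.07 to 12.11 on the 3 wild-type vector arrays, 12.91 to 13.22 under RNAi, 12.14 to 12.20 with tunicamycin and 14.12 to 14.19 in the pmt-2 mutant. It was 12.26 to 12.36 in the ire-1 mutant on vector and 12.87 to 13 in it under RNAi, close to wild type under RNAi. The 15 oocyte and eggshell markers summed to between 15.05 and 15.14 on wild-type vector arrays, to 14.26 to 15.03 under RNAi, and to 8.55 to 8.75 in the pmt-2 mutant. In that mutant all 15 fell (lowest puf-5, a germline RNA-binding protein, at -7.75), as did col-19, a collagen of the adult cuticle, by -7.35 (SE 0.13, limma adjusted p = 4.54e-24), although the labels call the animals young adults. The 10 intestinal markers summed to 12.41 to 12.49 on wild-type vector arrays, to 11.68 to 12.34 under RNAi and to 12.05 to 12.14 with tunicamycin. In the ire-1 mutant they summed to 12.17 to 12.27 on vector and 12.29 to 12.34 under RNAi. The 8 hypodermal markers summed to 12.66 to 12.84 in wild type on vector, 12.32 to 12.95 under RNAi and 12.02 to 12.14 with tunicamycin. The 10 sperm markers gave 7.67 to 8.14, 8.27 to 8.97 and 6.65 to 7.54 in the same order, and the 10 muscle markers 13.02 to 13.34, 13.10 to 13.35 and 12.77 to 12.90. A sum is carried by its brightest genes and can hide changes of the others. Gene by gene, RNAi in wild type raised 11 and lowered 0 of the neuronal markers (limma, adjusted p under 0.05). It raised 5 and lowered 2 of the hypodermal, 2 and 4 of the intestinal and 0 and 9 of the oocyte markers. For sperm the counts were 5 and 0, and for muscle 2 and 2. Of all probe sets 33.3% were called, and 64.5% of those with a group mean of at least 5. The part of these tissues in the sqst-1 levels was not tested.

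3 further genes carry the sqst name and a probe set. Over the 10 groups sqst-2 had r = 0.60 with sqst-1 (Spearman's rho 0.79), sqst-3 -0.63 and sqst-4 -0.66. The group means of sqst-2 ran from 5.35 with tunicamycin to 7.52 in the pmt-2 mutant. sqst-2 fell with tunicamycin by -0.70 (SE 0.17, limma adjusted p = 0.00476), where sqst-1 was higher, and rose in the pmt-2 mutant by 1.47 (SE 0.17, adjusted p = 3.5e-08) and under RNAi in the pek-1 mutant by 0.51 (SE 0.17, adjusted p = 0.0191). In wild type under RNAi its arrays read 6.03, 6.93 and 6.25 against 5.83, 6.13 and 6.18 on vector, which overlap (0.36, SE 0.17, limma adjusted p = 0.12). sqst-3 had group means between 2.36 and 2.95 and sqst-4 between 1.89 and 2.59, ranges of less than 1 on the log2 scale. Both lay below the array medians of 3.74 to 3.89, and neither passed the limma test in any direct comparison of groups made here. Their negative r values thus rest on dim signals and do not show opposite regulation.

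The rest of the autophagy machinery was followed through 42 measured genes of a list of 44, without sqst-1. Under pmt-2 RNAi in wild type 18 of the 42 rose and 5 fell (limma, adjusted p under 0.05 over all probe sets), a share of 54.8% called where 33.3% of all probe sets were. Most of the array is dim, and among the 12992 probe sets with a group mean of at least 5 the shares were 63.4% for the 41 autophagy genes there and 64.5% for all, so the list was called about as often as other well-detected genes. The median difference of the list was 0.22 against -0.09 over all probe sets. The largest rise was that of dct-1, the homologue of the mitophagy receptors BNIP3 and NIX, by 1.98 (SE 0.10, adjusted p = 9.87e-14). atg-2, a lipid carrier of the growing membrane, rose by 1.44 (SE 0.12), lgg-2, an LC3-like Atg8 protein, by 1.22 (SE 0.08), and epg-9, the ATG101 homologue, by 1.19 (SE 0.08). The 3.31 of sqst-1 is not ranked against them, because that gene was chosen by its levels.

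By role, 7 of 10 genes of initiation and phagophore growth rose and 0 fell, a step run by the UNC-51 kinase (unc-51 itself 1.04, SE 0.14). epg-7, a scaffold that links SQST-1 cargo to the autophagy proteins, rose by 0.36 (SE 0.13, limma adjusted p = 0.0334), a call that was lost when each array was centred on its median (adjusted p = 0.122). It was also lost with the deposited group means (adjusted p = 0.0642) and with the variance of the groups compared alone (0.113). Without wild-type vector replicate 1 or 2, or wild-type RNAi replicate 1, it was lost too (limma adjusted p = 0.0912, 0.123 and 0.135). Of the 4 genes of the lipid kinase complex that nucleates the membrane only bec-1, the Beclin 1 homologue, changed, by 0.51 (SE 0.10). Of the 11 Atg8 genes and conjugation enzymes 3 rose: lgg-1, the GABARAP-like protein that SQST-1 and other receptors bind, by 0.82 (SE 0.10, adjusted p = 8.41e-07), lgg-2, and the protease gene atg-4.1 (0.55). The receptors and cargo proteins split, with 3 of 10 higher (dct-1, allo-1 and ikke-1) and 4 lower. epg-2, an adaptor for P granule cargo, did not pass (0.29, SE 0.30, adjusted p = 0.492). Of 7 genes of maturation and fusion 4 rose, led by lmp-1, a lysosomal membrane protein of the LAMP family, at 1.18, and 1 fell. In the order given, the shares called were 70%, 25%, 27.3%, 70% and 71.4%. Of all probe sets 33.3% were called, and 64.5% of those with a group mean of at least 5. The shares of nucleation and of the Atg8 genes lay below both, and those of the other roles above both. With 4 to 11 genes a role, differences between these shares were not tested.

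With tunicamycin 23 of the 42 rose and 1 fell (median 0.28), or 57.1%, where 16.6% of all probe sets were called. Among probe sets with a group mean of at least 5 the shares were 58.5% and 34.2%. The leading genes differed from those under RNAi: epg-2 rose by 2.49 (SE 0.30, limma adjusted p = 5.3e-07) and sepa-1, a receptor for P granule proteins, by 2.30 (SE 0.29), followed by dct-1 (1.36) and lgg-1 (1.18, SE 0.10). Compared directly with RNAi, epg-2 was higher with tunicamycin by 2.20 (SE 0.30, adjusted p = 1.79e-06) and sepa-1 by 2.20 (SE 0.29), whereas sqst-1 had -1.63 in that comparison. Of the Atg8 genes and conjugation enzymes 9 of 11 rose and 0 fell. bec-1 did not pass (-0.16, SE 0.10, adjusted p = 0.318), and epg-7 rose by 0.60 (SE 0.13), a call that was lost with the variance of the groups compared alone (adjusted p = 0.0926).

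In the pmt-2 mutant, 22 of the 42 rose and 13 fell (median 0.31), 83.3% against 59.2% of all probe sets called, and 87.8% against 87.5% among those with a group mean of at least 5. dct-1 rose by 3.31 (SE 0.10, limma adjusted p = 1.08e-19) and atg-2 by 2.30 (SE 0.12). The largest falls were of pgl-3 (-4.53, SE 0.10) and pgl-1 (-4.1, SE 0.11), germline P granule proteins that autophagy clears from embryonic somatic cells, beside the loss of oocyte markers given above. lgg-1 rose by 1.15, lgg-2 by 1.5, bec-1 by 0.51 and epg-7 by 1.60, while epg-2 did not pass (0.08, SE 0.30, adjusted p = 0.822).

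**Figure D3:**
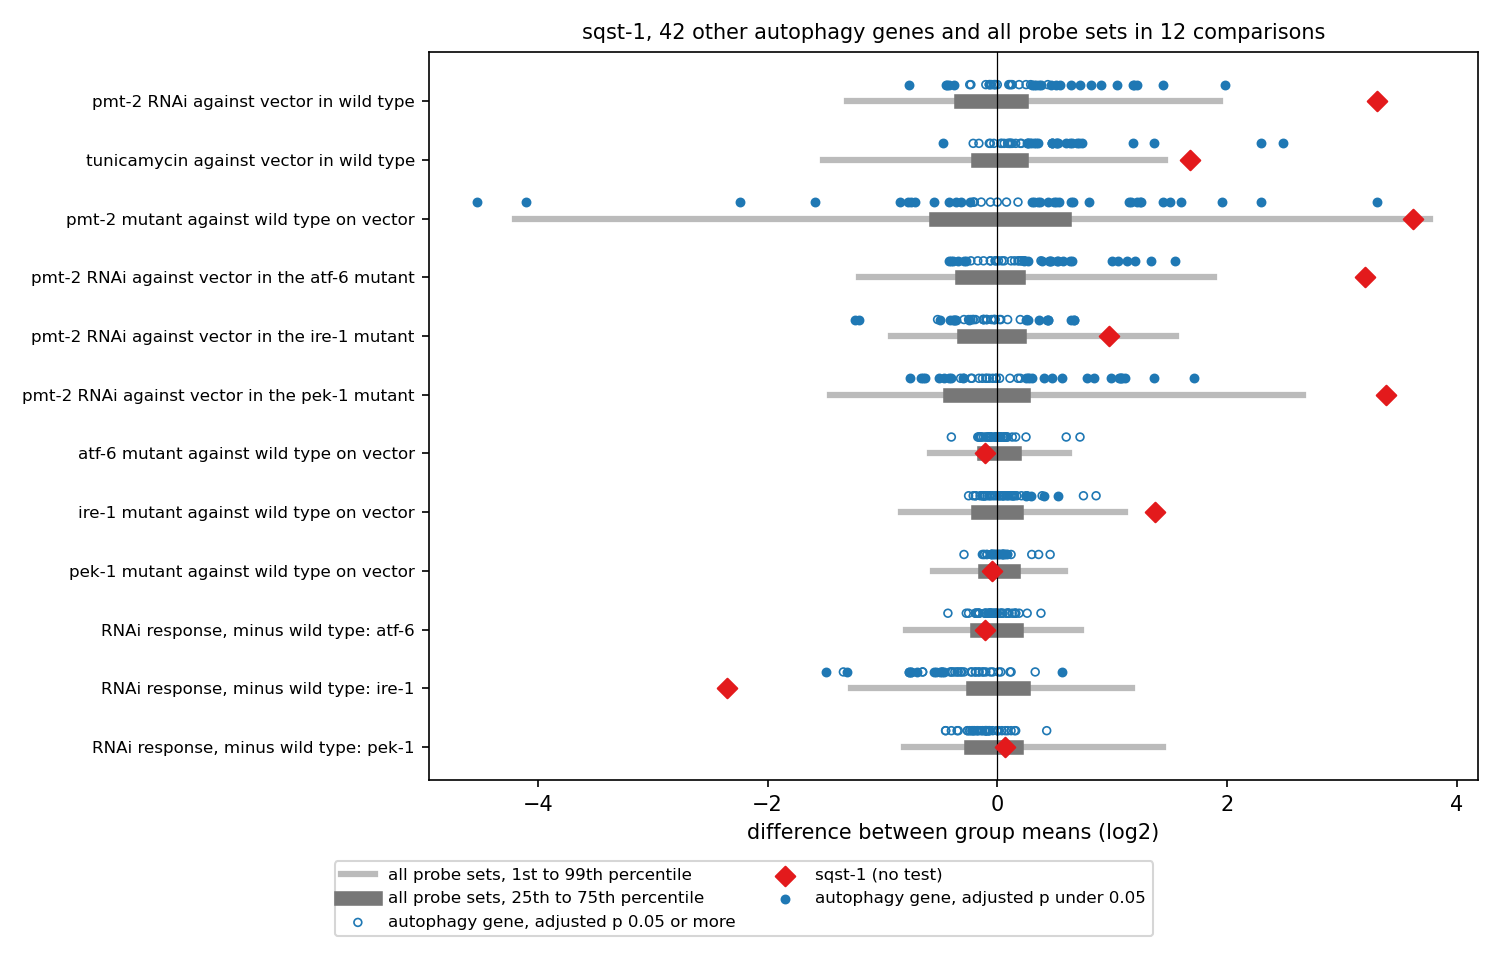
Difference between group means (log2) in 12 comparisons for sqst-1 (red diamond, no test), the 42 other autophagy genes (blue, filled where the limma adjusted p is under 0.05) and all probe sets (grey bars, 1st to 99th and 25th to 75th percentile). sqst-1 lies beyond the grey bar under RNAi in wild type, atf-6 and pek-1, with tunicamycin and in the ire-1 mutant on vector, and on the low side for the ire-1 difference of responses (-2.35).

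The counts above use the spread over all 10 groups. With the variance of the groups compared alone, 14 autophagy genes were called under RNAi in wild type and 14 with tunicamycin. Calls over all 28387 probe sets fell as well, from 9467 to 5634 under RNAi and from 4715 to 2970 with tunicamycin.

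The list was also compared across strains. In the atf-6 mutant RNAi raised 17 of 42 and lowered 6 (29.9% of all probe sets called), and in the pek-1 mutant 16 rose and 9 fell (43.9% of all probe sets). Among probe sets with a group mean of at least 5 the shares were 68.3% of autophagy genes and 59.7% of all in the atf-6 mutant, and 65.9% and 74% in the pek-1 mutant. dct-1 led in both, at 1.55 (SE 0.10) and 1.71 (SE 0.10). In the ire-1 mutant 9 rose and 9 fell (28.1% of all probe sets), with a median of -0.09, and at a group mean of at least 5 the shares were 53.7% of autophagy genes and 57.3% of all. There sepa-1 (-1.24, SE 0.29) and epg-2 (-1.2, SE 0.30, limma adjusted p = 0.00382) fell, and atg-2 (0.67, SE 0.12) and dct-1 (0.67, SE 0.10) rose.

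The difference of responses, ire-1 mutant minus wild type, was lower for 12 of the 42 genes and higher for 1, pgl-3, with 6.25% of all probe sets called in either direction. Among probe sets with a group mean of at least 5 the shares were 41.5% of autophagy genes and 17.2% of all. dct-1 had -1.31 (SE 0.14, limma adjusted p = 6.15e-07), atg-2 -0.77 (SE 0.17, adjusted p = 0.00594) and lgg-2 -0.77 (SE 0.11, adjusted p = 2.2e-05). epg-2 had -1.49 (SE 0.42, adjusted p = 0.0315), lgg-1 -0.55 (SE 0.15, adjusted p = 0.0197) and bec-1 -0.53 (SE 0.14, adjusted p = 0.0186). The last 3 did not pass once arrays were centred on their medians (adjusted p = 0.0505, 0.0604 and 0.0848), where 7 genes were lower and 1 higher in all. Over all probe sets centring left 676 lower and 1099 higher, against 890 and 885 before. The calls of these 3 genes were also lost without single arrays: epg-2 without 7 of the 12 (adjusted p up to 0.103), lgg-1 without 3 (up to 0.0727) and bec-1 without 3 (up to 0.057). epg-7 did not pass (-0.34, SE 0.18, adjusted p = 0.37). sqst-1 had -2.35, which is not ranked against these because the gene was chosen by its levels. The weaker fall of pmt-2 in the ire-1 mutant accompanies these differences as well, and its part in them was not tested.

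**Figure D4:**
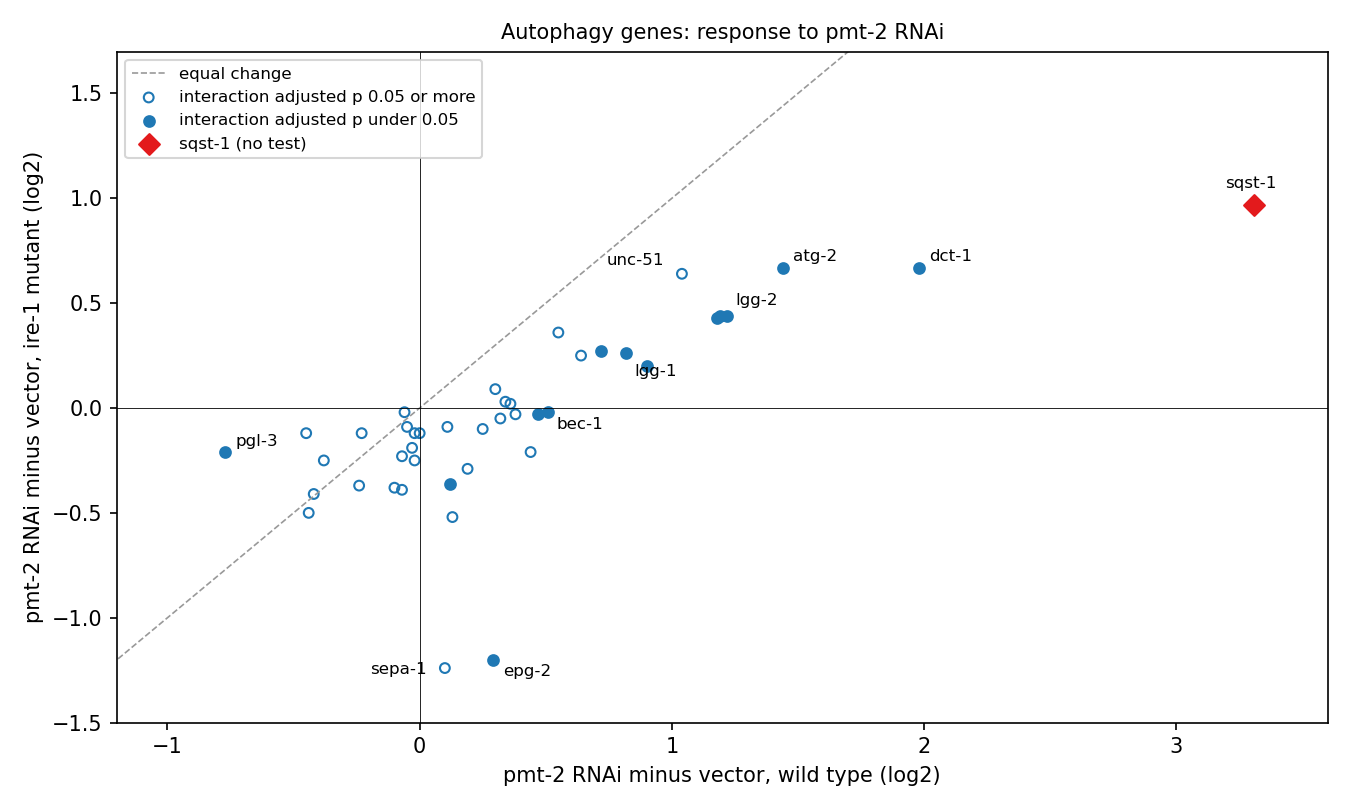
Change of 42 autophagy genes under pmt-2 RNAi (log2, RNAi minus vector) in wild type (x axis) and in the ire-1 mutant (y axis); filled points passed the interaction test, the dashed line marks equal change, and sqst-1 (red, no test) is at 3.31 and 0.97. 12 filled points lie below the dashed line and 1, pgl-3, above it.

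For atf-6 and pek-1 the same difference of responses was called for 0 of 42 autophagy genes by limma, where 0.0282% and 1.24% of all probe sets were called, and at an unadjusted p under 0.05 for 4 and 2 of them, where 6.87% and 12.5% of all probe sets were under it. With an intensity trend and a robust prior in limma the counts were also 0 and 0. On vector, 0 of the 42 differed from wild type in the atf-6 mutant (0.194% of all probe sets) and 0 in the pek-1 mutant (0.113%), with 2 and 1 at an unadjusted p under 0.05, as were 10.1% and 8.47% of all probe sets. The ire-1 mutant on vector, where sqst-1 was 1.37 higher, had 4 genes higher and 0 lower, 9.5% where 6.16% of all probe sets were called. At a group mean of at least 5 the call was made for 5 of 41 autophagy genes (12.2%) and for 2141 of all 12992 probe sets, a higher share. The 4 genes were dct-1 (0.53, SE 0.10, limma adjusted p = 0.000897), lmp-1 (0.41, SE 0.10), atg-18 (0.29, SE 0.07) and lgg-2 (0.25, SE 0.08, adjusted p = 0.0431). That count fell to 2 without wild-type vector replicate 1 or 2, to 1 without ire-1 vector replicate 3, and to 0 with the variance of these groups alone. In the last setting calls over all probe sets fell from 1748 to 834.

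Factors known to act on autophagy genes were read in the same arrays. Of 17 such regulators 8 rose and 1 fell under RNAi in wild type, or 52.9%, where 33.3% of all probe sets were called and 64.5% of those with a group mean of at least 5. pha-4, the FOXA factor, rose by 1.79 (SE 0.16, limma adjusted p = 3.4e-09), hlh-30 by 1.28 (SE 0.14) and daf-16, the FOXO factor, by 0.81 (SE 0.08). xbp-1, the target of IRE-1 splicing, rose by 0.80 (SE 0.09) and skn-1 by 0.35 (SE 0.09), a call that was lost with the variance of the groups compared alone (adjusted p = 0.0855). hsf-1 did not pass (0.02, SE 0.08, adjusted p = 0.868). With tunicamycin 3 of 17 rose and 2 fell, or 29.4%. There 16.6% of all probe sets were called, and 34.2% of those with a group mean of at least 5. pha-4 rose by 1.40 (SE 0.16) and xbp-1 by 0.52 (SE 0.09). hlh-30 had -0.08 (SE 0.14, limma adjusted p = 0.79), and mxl-3, a repressor of lysosomal lipase genes, fell by -1.97 (SE 0.11).

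The difference of responses between the ire-1 mutant and wild type was lower for 3 of the 17 and higher for 1, or 23.5%, where 6.25% of all probe sets were called and 17.2% of those with a group mean of at least 5. atfs-1, the factor of the mitochondrial unfolded protein response, had -0.63 (SE 0.12, limma adjusted p = 0.0014), and mxl-3 went the other way, at 0.68 (SE 0.15, adjusted p = 0.0067). pha-4 was higher in the ire-1 mutant on vector by 1.03 (SE 0.16, limma adjusted p = 0.000128), its RNAi response there was 0.42 (SE 0.16, adjusted p = 0.0557, under the threshold in 4 of the other settings), and its difference of responses was -1.37 (SE 0.23, adjusted p = 0.000287). hlh-30 rose under RNAi in the ire-1 mutant by 1.10 (SE 0.14, adjusted p = 2.85e-06) with a difference of responses of -0.18 (SE 0.19, adjusted p = 0.723). daf-16 had -0.40 (SE 0.11, adjusted p = 0.0333), which did not pass after centring the arrays (adjusted p = 0.107) or without any 1 of 9 of the 12 arrays (adjusted p 0.0505 to 0.0916). For xbp-1 (-0.33, SE 0.13, adjusted p = 0.148), skn-1 (-0.26, SE 0.12, adjusted p = 0.281) and hsf-1 (-0.33, SE 0.12, adjusted p = 0.111) the difference of responses did not pass. hsf-1 and xbp-1 passed among probe sets with a group mean of at least 5 (adjusted p = 0.0264 and 0.0445) and with an intensity trend and robust prior (0.0303 and 0.0431). Transcript levels of these factors do not report their activity.

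Gene groups that stand near SQST-1 in the stress literature did not move as one. Of 18 glutathione S-transferase and other detoxification genes linked to SKN-1, 4 rose and 7 fell under RNAi in wild type (61.1%), and 3 rose and 5 fell with tunicamycin (44.4%). In these comparisons 33.3% and 16.6% of all probe sets were called, and 64.5% and 34.2% of those with a group mean of at least 5. gst-10 fell in both, by -2.12 (SE 0.19) and -1.33 (SE 0.19), and gst-4, a common SKN-1 reporter gene, fell with tunicamycin by -1.92 (SE 0.21, limma adjusted p = 1.87e-07). Under RNAi 12 of the 16 ER folding genes on the list rose and 0 fell, led by crt-1, calreticulin (0.71, SE 0.08), and with tunicamycin 10 rose and 0 fell, led by dnj-27 (1.75, SE 0.12). In the ire-1 mutant on vector, where sqst-1 was higher, 0 of these 16 rose and 7 fell, or 43.8%, where 6.16% of all probe sets were called. Of 15 cytosolic heat shock genes 4 rose and 0 fell under RNAi, and 1 rose and 10 fell with tunicamycin, hsp-70 by -3.09 (SE 0.22). Ubiquitin and proteasome genes, whose products handle the same ubiquitinated substrates, were lower for 17 of 34 under RNAi. In the pmt-2 mutant 34 of 34 were lower, and 0 were higher in either comparison. Of all probe sets 33.3% and 59.2% were called, and 64.5% and 87.5% of those with a group mean of at least 5.

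The genes whose group means most resembled those of sqst-1 were sought among 7028 genes whose 10 group means had an SD of at least 0.5. Likeness was Pearson's r over the 10 group means, given as a description, since the groups share strains and treatments. lmp-1 came first with r = 0.998, followed by trx-3, a thioredoxin (0.991), cpr-3, a cathepsin B-like protease (0.989), dos-1 (0.988), F09F7.5 (0.986), cex-1 (0.985), epg-9 (0.984) and F11A6.7 (0.983). High values were common: 445 genes, 6.33% of the candidates, had r over 0.9, and the median was 0.438. The 8 genes lie on chromosomes I, II, III, IV, V and X, not in 1 neighbourhood.

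lmp-1 had group means of 9.36 ± 0.09 in wild type on vector, 10.55 ± 0.16 under RNAi, 9.90 ± 0.13 with tunicamycin and 10.61 ± 0.14 in the pmt-2 mutant. In the ire-1 mutant it went from 9.77 ± 0.10 on vector to 10.20 ± 0.07 under RNAi. The order of groups was close to that of sqst-1 (Spearman's rho 0.976), over a smaller range: the SD of its group means was 0.52 against 1.5. cpr-3 spanned more than sqst-1, from 5.09 ± 0.26 on vector to 9.01 ± 0.34 under RNAi and 9.38 ± 0.07 in the mutant. trx-3 went from 4.43 ± 0.67 to 7.47 ± 0.67 under RNAi and stood at 6.07 ± 0.27 with the drug. F11A6.7 had widely spread vector arrays in wild type (3.38 ± 1.28).

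**Figure D5:**
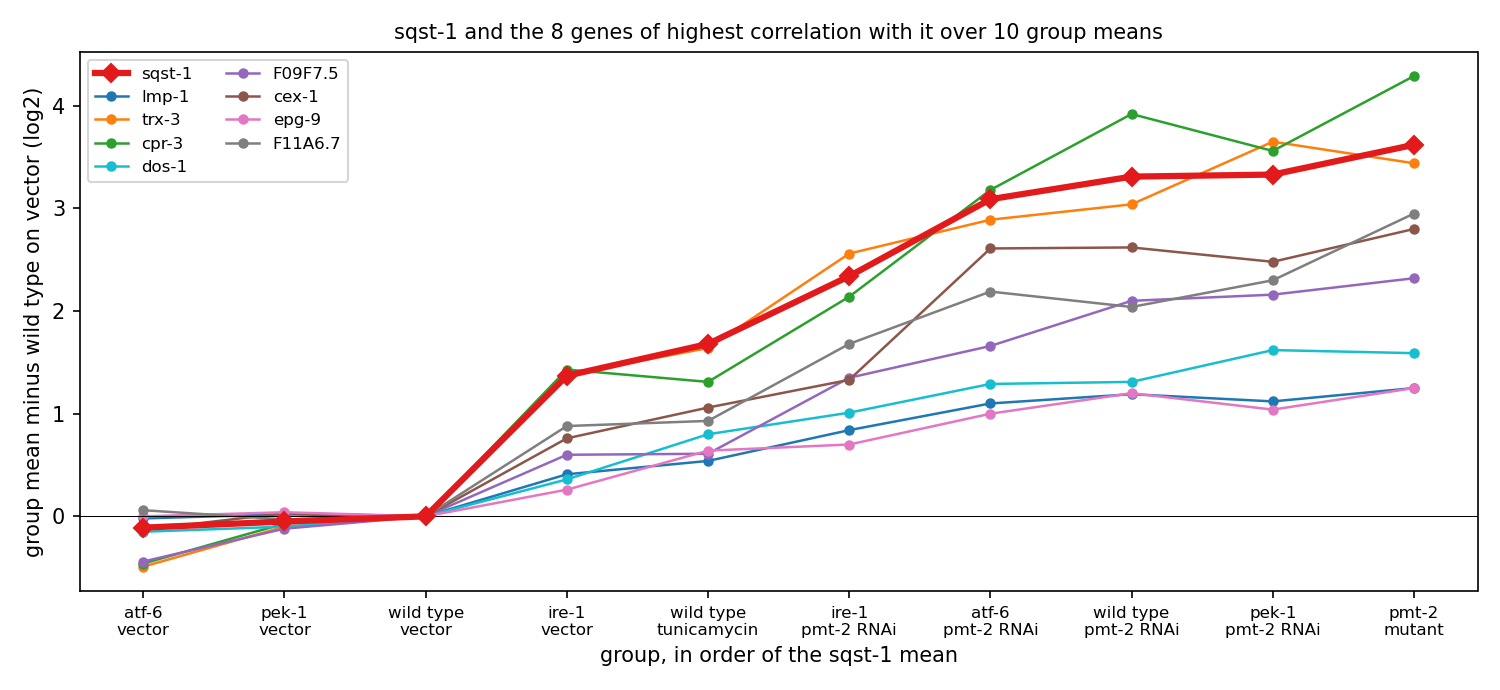
Group mean minus the wild-type vector mean (log2) for sqst-1 (red) and the 8 genes with the highest correlation over the 10 group means, groups in the order of sqst-1. All 9 lines step up at the ire-1 vector group and again under RNAi, a likeness that the choice by correlation builds in. Among the 8 genes, the ire-1 vector step did not pass the limma test for dos-1 (adjusted p = 0.281), epg-9 (0.0676) and F11A6.7 (0.371), and passed for the rest. cpr-3 and trx-3 move over a range like that of sqst-1, lmp-1, epg-9 and dos-1 over a smaller one.

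Which genes are named depends on the measure. Of the 8, 6 stayed with r over the 30 arrays, 5 with an SD of at least 1, 3 without the pmt-2 mutant and 1 by rank. Among the autophagy genes and regulators, lgg-2 had r = 0.98, pha-4 0.97 and hlh-30 0.90. atg-18 had 0.96, but the SD of its group means, 0.24, is under the floor of 0.5. Others on these lists were negative, such as let-363 (-0.90), pink-1 (-0.85) and epg-3 (-0.85), with SDs also under that floor. The most opposite patterns were those of asp-14, an aspartyl protease (-0.987), cpr-9, a cathepsin B-like protease (-0.985), hrg-11.4 (-0.985) and aqp-11, an aquaporin (-0.984). asp-14 went from 8.47 on vector to 6.37 under RNAi in wild type.

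The neighbours of sqst-1 on chromosome IV did not move like it in size. mrpl-51, a gene of the mitochondrial ribosome that ends 2097 bases upstream on the same strand, fell under RNAi in wild type by -0.52 (SE 0.13, limma adjusted p = 0.00188) and did not pass with tunicamycin (0.21, SE 0.13, adjusted p = 0.301). T12G3.2, which lies 1935 bases downstream on the other strand, rose by 0.68 (SE 0.09, adjusted p = 2.21e-06) under RNAi, by 0.58 (SE 0.09) with tunicamycin and by 1.07 (SE 0.09) in the pmt-2 mutant, and its group means had r = 0.95 with those of sqst-1. In the ire-1 mutant on vector T12G3.2 did not pass the test (0.12, SE 0.09, adjusted p = 0.52).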

How the data were processed

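The authors hybridised biotinylated cDNA from 300 ng of total RNA, per the labels' protocols, and used RMA (version not stated) according to the submitters' processing notes. The deposited value table holds 1 log2 signal per array, and the deposited comparison tables hold log2 group means, SDs and a signed fold score (a linear ratio with a sign), per the file headers. Recomputed biweight means and SDs met the deposited ones within 0.0051. Of 29317 probe sets, 930 without annotation were left out. 25930 of the rest name 1 gene, and 2547 symbols were updated. Differences and tests come from limma 3.58.1 in R 4.3.3, fitted to the 10 groups (20 residual and 4.29 prior degrees of freedom), with Benjamini-Hochberg adjustment over 28387 probe sets and a threshold of 0.05. On data simulated for RNAi in wild type (5 runs of 28387 probe sets, 200 changed), 36.1%, 82.4% and 99.7% of 1.5, 2 and 4-fold changes were recovered and 3.97% of calls were false. A gene with several probe sets was read by the brightest. Named genes were those most like or unlike sqst-1 (8 and 4), up to 4 called autophagy genes a comparison, up to 3 of each other list, targeted genes, neighbours and a preset set of regulators; other genes named beside counts were chosen after their values were seen. The members and lists were chosen with earlier results of these data known. Sample replicate numbers did not pair arrays (median correlation of deviations 0.00765 over 135 same-numbered pairs, 9 over 0.1). The alternatives were other sources, scalings, filters, variances, moderation, a replicate block and leaving out each array.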

Additional observations from a re-analysis of the deposited data

Results flagged for a closer look

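The response to pmt-2 RNAi differed between the ire-1 mutant and wild type, by a limma interaction test over all probe sets, for 16 of the autophagy genes, regulators and targeted genes named above. Some of these genes were named because they passed this test, so neither the 16 nor its split is a result about the lists. Of all probe sets 6.25% were called, and 17.2% of those with a group mean of at least 5. The value was lower in the mutant for 13 of the 16. It was -1.49 for epg-2 (SE 0.42, limma adjusted p = 0.0315), -1.31 for dct-1 (SE 0.14, adjusted p = 6.15e-07) and -0.77 for atg-2 (SE 0.17, adjusted p = 0.00594). lgg-2 had -0.77 (SE 0.11, adjusted p = 2.2e-05), lgg-1 -0.55 (SE 0.15, adjusted p = 0.0197) and bec-1 -0.53 (SE 0.14, adjusted p = 0.0186). epg-9 and lmp-1, both also chosen for likeness to sqst-1, had -0.75 each (adjusted p = 9.26e-05 and 0.00157), allo-1 -0.70 (adjusted p = 0.00083) and atg-18 -0.50 (adjusted p = 0.00296). The regulators pha-4, atfs-1 and daf-16 had -1.37 (adjusted p = 0.000287), -0.63 (adjusted p = 0.0014) and -0.40 (adjusted p = 0.0333). The value was higher for 3: pgl-3 with 0.56 (SE 0.14, adjusted p = 0.0149), mxl-3 with 0.68 (SE 0.15, adjusted p = 0.0067) and the targeted gene pmt-2 with 1.33 (SE 0.16, adjusted p = 3.55e-06).

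After centring the arrays, 4 of these calls were lost, those of epg-2 (adjusted p = 0.0505), lgg-1 (0.0604), bec-1 (0.0848) and daf-16 (0.107). The call of epg-2 was also lost without wild-type vector replicate 2, wild-type RNAi replicate 1 or 3, ire-1 vector replicate 1 or 3, or ire-1 RNAi replicate 1 or 3. That of lgg-1 was lost with the deposited group means (adjusted p = 0.0527) and without wild-type vector replicate 3, ire-1 vector replicate 1 or ire-1 RNAi replicate 2, and that of bec-1 without wild-type RNAi replicate 1, ire-1 vector replicate 1 or ire-1 RNAi replicate 3. That of daf-16 was kept only without wild-type RNAi replicate 1 or 3 or ire-1 vector replicate 1. The part of the weaker pmt-2 knockdown in these differences was not tested.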

How the results depend on the processing

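The sqst-1 differences moved by less than the pooled SD of 0.113 in 108 of 111 recomputations under other settings and in all 120 that left out 1 array of the groups compared. From the deposited group means RNAi in the pek-1 mutant gave 3.50 and the pek-1 mutant on vector -0.16, and with arrays centred on their medians the pmt-2 mutant gave 3.50, a shift of -0.12 that applies to all genes of that comparison. Counts of autophagy genes stayed within 1.5 times in 74 of 81 recomputations. With the variance of the groups compared alone they were 14 for RNAi in wild type, 14 for tunicamycin, 15 for RNAi in the atf-6 mutant and 0 for the ire-1 mutant on vector. Centring gave 2 for the ire-1 mutant on vector and 8 for its interaction, and a group mean of at least 5 gave 1 for the pek-1 interaction. Leaving out single arrays gave 1 to 3 for the ire-1 mutant on vector and 0 to 1 for the pek-1 interaction, 1 without wild-type RNAi replicate 2. Over all probe sets the pek-1 interaction, 353 calls, ranged from 146 to 1532, the latter also without that array, and was 846 from the deposited means. The variance of the groups alone gave 5634 calls for RNAi in wild type (9467), 2970 for tunicamycin (4715), 834 for the ire-1 mutant on vector (1748), and 5 for atf-6 (55) and 5 for pek-1 (32) on vector; the deposited means gave 212 and 93 for these. After centring, higher and lower calls were 638 and 1390 for the ire-1 mutant on vector (845 and 903 before), 1099 and 676 for its interaction (885 and 890), 16 and 54 for the atf-6 mutant on vector (23 and 32) and 16 and 16 for the pek-1 mutant on vector (20 and 12). The replicate numbers share only a number: as a replicate block they left the sqst-1 RNAi difference at 3.31 and the ire-1 interaction at 13 calls, and in no autophagy count did they move the value by 1.5 times. Of the 8 genes most like sqst-1, 1 was shared by rank, 3 without the pmt-2 mutant and 5 with an SD of at least 1. No named gene reversed. The causes were not tested. With 3 arrays a group, small changes can be missed: in the simulated data 36.1% of 1.5-fold changes were recovered. Only 200 of 28387 probe sets were changed there, whereas 33.3% were called for RNAi in wild type. Recovery in the real comparisons may therefore differ and was not measured.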
